A study of Homo sapiens with 3 samples.

Results

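The comparison described here set DLD1 cells transfected with siH19-2, an siRNA against the long noncoding RNA H19, against DLD1 cells transfected with a control siRNA. DLD1 is an established human colon cancer cell line, here obtained from ATCC. The study profiled 3 conditions with 1 whole-transcript Affymetrix array each: siH19-2, siH19-1 (the other siRNA against H19) and control siRNA. All 3 received siRNA at 50 nM with Lipofectamine RNAiMAX, and 500 ng of total RNA was labelled with the WT PLUS kit. The transfection is given as 48 h in the protocol and as 24 h in the series' design text, and which holds was not settled. Probe sets with exactly 1 gene symbol in the platform annotation were used, and for each gene the probe set with the highest mean over the 3 arrays. A gene entered when that mean reached 5 on the log2 scale, which left 9630 of 22465 genes with a symbol of their own, on an array of 67528 probe sets. The genes nearest above that minimum were PSTK, METTL25 and KRTAP5-6, each with a mean of 5.00, and the nearest below it were RNA5SP140, LLGL1 and FAM210B, each with a mean of 4.997.

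There was 1 array per condition. No difference below therefore has a replicate check, an error or a p-value, and each compares 2 arrays rather than 2 conditions. Differences are siH19-2 minus control siRNA on the deposited log2 scale, and a gene is said to rise, fall or change only where its signal differed at least 1.5-fold. The siH19-1 values are given alongside. They were read against the same control array, so the pair of differences is not independent. In cells measured in bulk, fewer cells of a type and less RNA per cell cannot be told apart.

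H19 is transcribed from the maternal copy of an imprinted locus that it shares with the growth factor gene IGF2. Its RNA is abundant in the fetus and silenced in most adult tissues, and it is expressed again in many tumours, colorectal tumours among them. It also carries the microRNA gene MIR675. A microRNA pairs with target messages chiefly through its seed, the bases 2 to 8 counted from its 5′ end.

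The mature microRNAs made from H19 are shown because they come from the targeted transcript. miR-2054 is shown because its gene had the lowest difference of all microRNA genes. miR-766-5p is shown because its gene had the highest. Sequences are from RefSeq (GRCh38.p14), written 5′ to 3′ with the seed in capitals.
hsa-miR-675-5p (MIR675, chr11:1996800-1996822, minus strand): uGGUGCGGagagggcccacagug
hsa-miR-675-3p (MIR675, chr11:1996768-1996787, minus strand): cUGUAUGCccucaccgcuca
hsa-miR-2054 (MIR2054, chr4:125507259-125507281, plus strand): cUGUAAUAuaaauuuaauuuauu
hsa-miR-766-5p (MIR766, chrX:119646799-119646820, minus strand): aGGAGGAAuuggugcuggucuu

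The H19 probe set, which also carries the MIR675 symbol and is therefore not among the 9630 genes, had a log2 signal of 7.37 with siH19-2, 7.74 with siH19-1 and 7.88 with control siRNA. With siH19-2 it stood at 70.2% of control, a difference of -0.51 that is short of 1.5-fold, and with siH19-1 the difference was -0.14. A deeper decrease than that of H19 was seen in 1087 of the genes compared (11.3%). The directions below are those of the library labelled siH19-2. With each array's median aligned over all probe sets the H19 difference was -0.61, past 1.5-fold. Quantile and cyclic loess scaling over all probe sets gave -0.47 and -0.48, both short of 1.5-fold.

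DLD1 identity was checked on fixed markers. The 10 epithelial and colonic markers had log2 signals from 3.02 to 15.26 with siH19-2 and from 2.97 to 15.46 with control siRNA, and 6 passed the minimum. The keratins KRT8 and KRT18 were bright, the intestinal factor CDX2 passed at 7.99 with siH19-2 and 7.80 with control siRNA, and the colonic genes CDX1, VIL1, LGALS4 and CEACAM5 lay below the minimum. Of 22 mesenchymal and fibroblast markers 0 passed, with FN1 brightest at a mean of 4.64. Of 20 leukocyte and endothelial markers CD68 alone passed, at 5.98 with siH19-2 and 5.95 with control siRNA. Deposited values ran from 1.78 to 19.93, and 65 compared genes lay above 16, the log2 limit of a 16-bit scanner, on both arrays. Only 2 of those 65 changed. Whether this scale hides differences among the very brightest genes was not tested.

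With siH19-2, 862 of the 9630 genes were lower and 283 were higher than with control siRNA. That is 8.95% lower, 2.94% higher and 11.9% changed in all. At 2-fold, 252 genes (2.62%) were lower and 50 (0.519%) were higher, or 3.14% in all. The median difference over all compared genes was -0.07, and 58.4% of genes lay below control. The lower tail was the longer one: the 1st percentile of the differences was -1.39 and the 99th percentile was 0.83. Differences reached -2 or lower in 25 genes and 2 or higher in 2 genes. With siH19-1, 253 genes (2.63%) were lower and 152 (1.58%) were higher, 4.21% in all, and the differences had an SD across genes of 0.279, against 0.403 with siH19-2.

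The balance of higher and lower genes depended on how the arrays were scaled. Genes that rose were 24.7% of the changed genes as deposited and 13.4% after median centring over all probe sets, but 44.2% after median centring over the compared genes and 45.6% after quantile normalization over the compared genes. These scalings moved the median difference by between -0.10 and 0.11. Of the 25 lowest and 25 highest genes, all 50 stayed past 1.5-fold in the same direction under the 5 other scalings. So did 530 of the 862 lower genes and 185 of the 283 higher genes. Those 50 genes differed by 1.19 or more in size, far beyond these shifts. Their result was thus fixed in advance and does not replace a replicate.

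**Figure D1:**
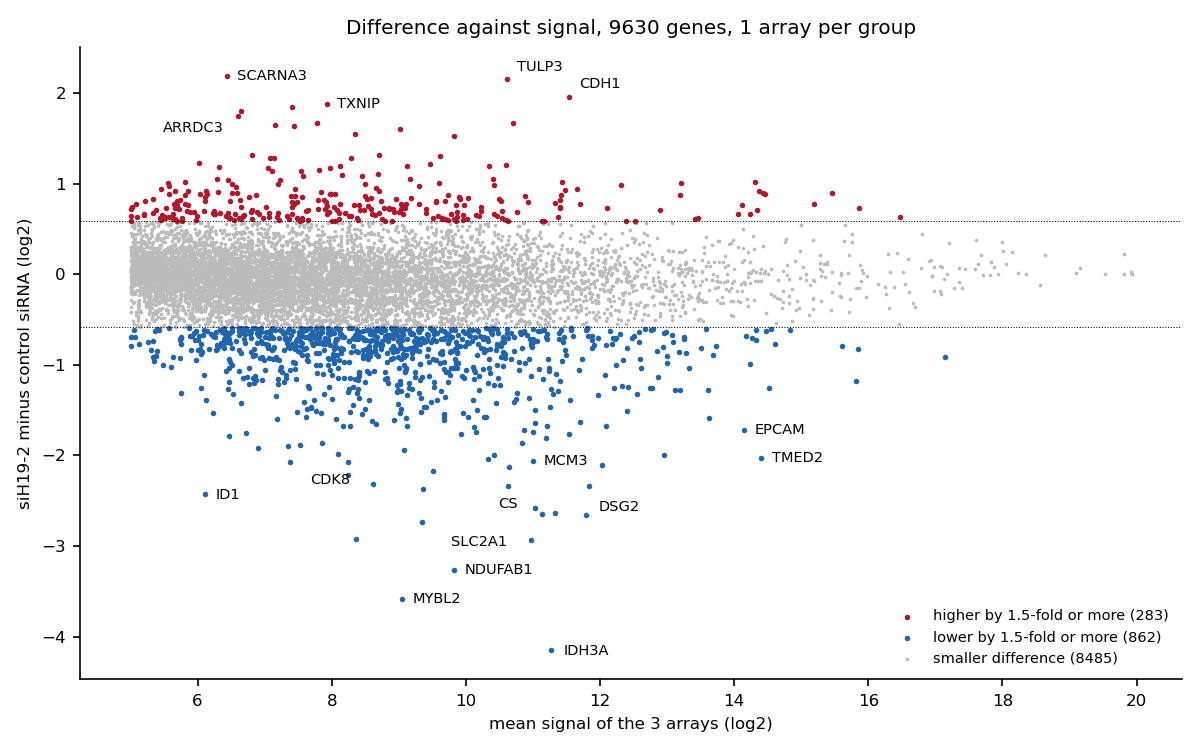
Each of the 9630 points is a gene, with its mean log2 signal over the 3 arrays on the x axis and its log2 difference, siH19-2 minus control siRNA, on the y axis. Dotted lines mark 1.5-fold; 862 genes lie below the lower line, reaching -4.15 at IDH3A, and 283 above the upper one, reaching 2.19 at SCARNA3.

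Lower genes were more frequent among brighter genes. Between a mean signal of 5 and 6, 34 of 1934 genes (1.76%) were lower and 46 (2.38%) were higher. Between 9 and 10, 155 of 1014 (15.3%) were lower and 40 (3.94%) were higher. At 16 and above, 1 of 63 was lower and 1 was higher. Just inside the threshold on the lower side were NAA25, ACSL5 and MRPL15 at -0.59, and just outside it JTB, RRP1 and DDX23 at -0.58.

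**Figure D2:**
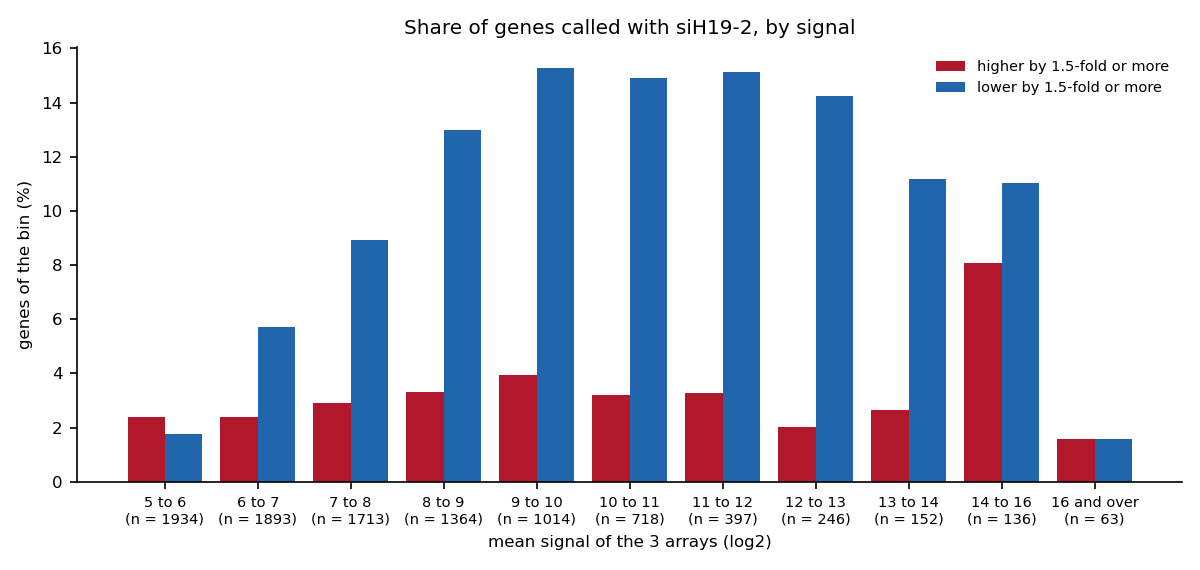
Bars give the share of genes (%) that were higher (red) or lower (blue) by at least 1.5-fold with siH19-2 than with control siRNA, in bins of mean log2 signal with the number of genes under each bin. The lower share is 1.76% in the dimmest bin and between 11.03% and 15.3% in the bins from 8 to 16; the higher share exceeds it only in the dimmest bin and equals it in the brightest.

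The deepest fall was in IDH3A, the catalytic subunit of the NAD-dependent isocitrate dehydrogenase of the tricarboxylic acid (TCA) cycle. Its log2 signal was 8.55 with siH19-2, 12.55 with siH19-1 and 12.70 with control siRNA, a difference of -4.15, which left 5.63% of control. The siH19-1 array stood beside the control and far from siH19-2. MYBL2, a MYB family transcription factor that works with the MuvB complex on cell cycle genes, had 6.84 with siH19-2, 9.90 with siH19-1 and 10.42 with control siRNA, or 8.36% of control. NDUFAB1 encodes the mitochondrial acyl carrier protein, which is also an accessory subunit of respiratory complex I. It had 7.90 with siH19-2, 10.42 with siH19-1 and 11.16 with control siRNA, a difference of -3.26. SLC2A1, the glucose transporter GLUT1, had 9.14 with siH19-2, 11.68 with siH19-1 and 12.07 with control siRNA, leaving 13.1% of control.

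Adhesion, transcription and signalling genes were also among the 25 lowest. The desmosomal cadherin DSG2 had 10.08 with siH19-2, 12.56 with siH19-1 and 12.74 with control siRNA, a difference of -2.66. The long noncoding RNA AFAP1-AS1 had 9.55 with siH19-2, 12.25 with siH19-1 and 12.19 with control siRNA, a difference of -2.64. In both, siH19-2 was the low array and the other arrays were close together. ID1, an inhibitor of helix-loop-helix transcription factors, had 4.75 with siH19-2, 6.41 with siH19-1 and 7.18 with control siRNA; its siH19-2 signal was under the signal minimum, as it was for 15 of the lower genes. CDK8, the kinase of the Mediator complex, had 7.25 with siH19-2, 9.02 with siH19-1 and 9.57 with control siRNA, a difference of -2.32.

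The rest of the 25 lowest genes spanned protein synthesis, secretion and cell division. LRRC59, a ribosome-binding protein of the endoplasmic reticulum membrane, differed by -2.34 (another, dimmer probe set of it by -0.13), M6PR, a mannose 6-phosphate receptor that carries enzymes to lysosomes, by -2.13, and TMED2, a cargo receptor of the early secretory pathway, by -2.03. EIF2S2, the beta subunit of translation initiation factor eIF2, differed by -2.10 and MRPS34, a protein of the mitochondrial ribosome, by -2.0. Among cell division genes were CCNF, cyclin F, at -2.22, RACGAP1, a GTPase regulator of cytokinesis, at -2.17, and MCM3, a subunit of the replicative helicase, at -2.06. CS, citrate synthase, differed by -2.58, PPAT, the committing enzyme of purine synthesis, by -2.04 and the F-box protein gene FBXW2 by -2.07. FAM32A (-2.92), C11orf24 (-2.73), FAM111B (-2.65), C5orf22 (-2.37), IGFL4 (-2.34) and MIR2054 (-2.07) completed them.

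**Figure D3:**
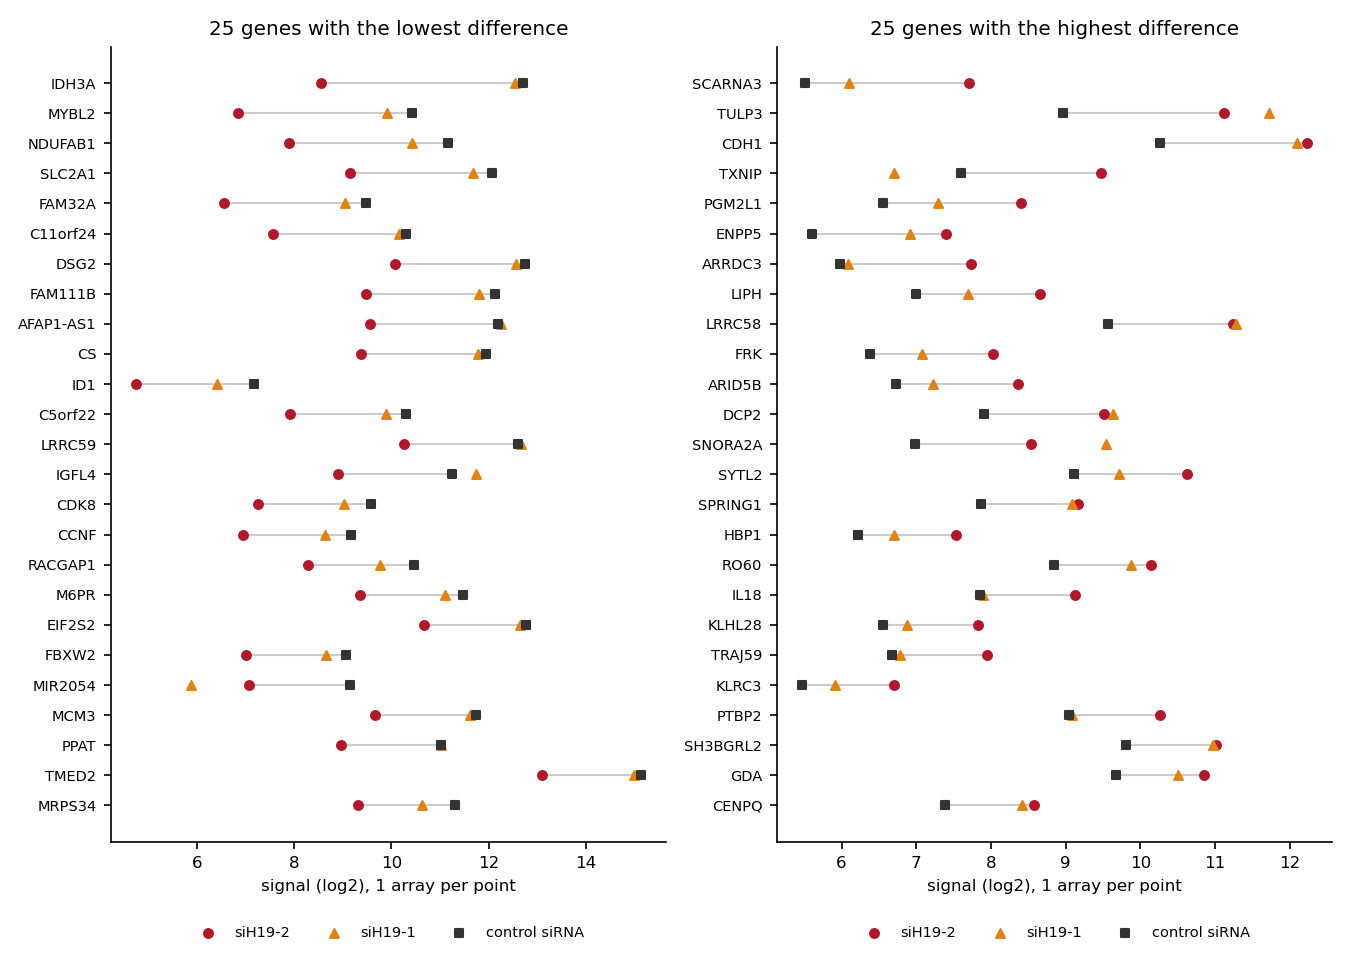
The 25 genes with the lowest (left) and the 25 with the highest (right) difference are listed from the top, with the log2 signal of each array on the x axis: siH19-2 (red circles), siH19-1 (orange triangles) and control siRNA (black squares). siH19-1 lies near control for IDH3A (12.55 against 12.70) and near siH19-2 for CDH1 (12.10 against 12.23); for TXNIP it lies below control (6.70 against 7.60).

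Genes that rose reached 4.56-fold. SCARNA3, a small Cajal body RNA of the class that guides the modification of spliceosomal RNAs, had 7.70 with siH19-2, 6.10 with siH19-1 and 5.51 with control siRNA, a difference of 2.19. TULP3, which carries receptors into cilia, had 11.12 with siH19-2, 11.73 with siH19-1 and 8.97 with control siRNA, a 4.44-fold rise. CDH1, which encodes the adherens junction protein E-cadherin, had 12.23 with siH19-2, 12.10 with siH19-1 and 10.27 with control siRNA, a 3.89-fold rise. For TULP3 and CDH1 the control was the low array and the arrays of both H19 siRNAs were high. TXNIP, an alpha-arrestin that limits glucose uptake by removing transporters from the surface, had 9.48 with siH19-2, 6.70 with siH19-1 and 7.60 with control siRNA. Its siH19-2 array was the highest and its siH19-1 array the lowest.

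ARRDC3, another alpha-arrestin, had 7.73 with siH19-2, 6.09 with siH19-1 and 5.98 with control siRNA, a 3.36-fold rise. PGM2L1, a synthase of a glucose bisphosphate, differed by 1.85, ENPP5 by 1.80, the lipase gene LIPH by 1.67 and LRRC58 by 1.67. Regulators among the 25 highest were the SRC-family kinase gene FRK (1.65), the chromatin-binding ARID5B (1.63), the mRNA decapping enzyme DCP2 (1.60), HBP1 (1.31), a repressor of cell cycle genes, and PTBP2 (1.22), a splicing regulator best known in neurons. SPRING1, which is needed for SREBP activation in sterol control, differed by 1.31, and the cytokine IL18 by 1.28. SYTL2 (1.52), RO60 (1.30), KLHL28 (1.28), SH3BGRL2 (1.20), GDA (1.19), CENPQ (1.19) and the box H/ACA small nucleolar RNA SNORA2A (1.55) were also there. So were TRAJ59 (1.28), a joining segment of the T cell receptor alpha locus, and KLRC3 (1.23), a receptor gene of natural killer cells; the T cell markers CD3D and CD3E stood at 2.78 and 3.59 with siH19-2, below the minimum.

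Genes were then read by function in 68 lists, chosen with earlier results of these data known, so a list's count is a description and no evidence that it stands apart. The shares to read them against are 8.95% lower, 2.94% higher and a median of -0.07. The lower share also rose with signal, from 1.76% of genes between 5 and 6 to 15.3% between 9 and 10. Lists differ in signal: the median with control siRNA was 11.97 for cytosolic chaperones and 6.59 for ZNF genes. Counts were not adjusted for this, so a bright list can exceed 8.95% through its signal level alone. In the ribosome biogenesis list, whose proteins transcribe and process ribosomal RNA and assemble the subunits in the nucleolus, 32 of 71 compared genes were lower and 0 were higher. The median was -0.56 with siH19-2 and -0.22 with siH19-1. NIP7, an assembly factor of the large subunit, had 9.97 with siH19-2, 11.85 with siH19-1 and 11.78 with control siRNA, leaving 28.5% of control. The nucleolar helicase DDX21 had 12.83 with siH19-2, 13.61 with siH19-1 and 14.42 with control siRNA. RRN3, the initiation factor of RNA polymerase I, had 8.24 with siH19-2, 9.57 with siH19-1 and 9.57 with control siRNA, and NOP58, a core protein of box C/D small nucleolar particles, differed by -1.28. In NIP7, RRN3 and NOP58 the siH19-1 array stood at or above the control. The lower count of this list ranged from 18 to 42 under the 5 other scalings, and 67 of the 71 genes lay below control as deposited.

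Other parts of the translation machinery moved less. Of 47 cytosolic ribosomal proteins 0 were lower and 0 were higher, with a median of -0.09 that turned positive (0.03) after quantile normalization over the compared genes; the largest difference was -0.50 in RPL35A. RNA polymerases I and III, a list added after the data were seen, had 9 of 34 lower, a median of -0.25 and a range of 6 to 11 over the other scalings. Its members POLR1F (-0.87) and POLR1E (-0.84) belong to polymerase I, and POLR3A (-0.85) is the largest subunit of polymerase III. Of 74 mitochondrial ribosomal proteins 7 were lower (3 to 9 by scaling), MRPL49 by -1.60 after MRPS34. Of 34 aminoacyl-tRNA synthetases 5 were lower (3 to 5 by scaling): the arginyl enzyme RARS1 had 11.61 with siH19-2, 13.64 with siH19-1 and 13.60 with control siRNA. Of 47 translation initiation factors 5 were lower and 1 was higher (EIF4EBP2, an inhibitor of the cap-binding eIF4E, at 0.79); after EIF2S2 the lowest were EIF5 (-0.93), EIF3B (-0.89) and EIF6 (-0.87).

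**Figure D4:**
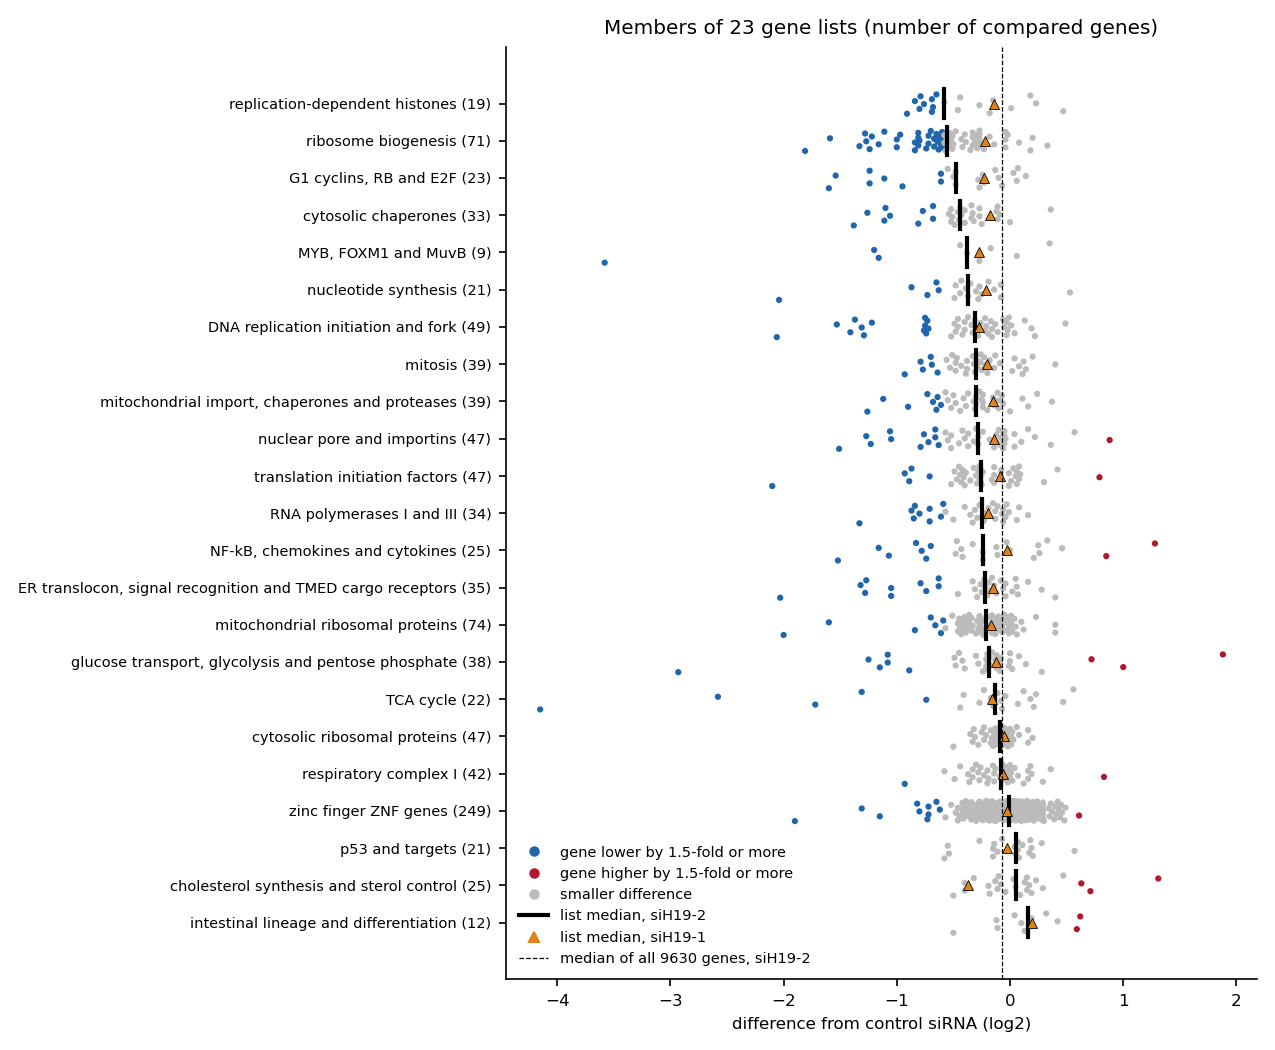
Each row is a gene list with its number of compared genes, and each point is the log2 difference, siH19-2 minus control siRNA, of a member: blue for lower and red for higher by at least 1.5-fold, grey for smaller. Black bars mark list medians with siH19-2, which run from -0.58 in replication-dependent histones to 0.16 in the intestinal list, orange triangles the medians with siH19-1, and the dashed line the median of all genes (-0.07).

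Among cell cycle genes, those of entry into DNA synthesis were read first. In the list of G1 cyclins, RB and E2F genes, which govern that step, 8 of 23 were lower and 0 were higher, with a median of -0.48 (siH19-1, -0.23). CCNE1, cyclin E1, had 8.83 with siH19-2, 9.82 with siH19-1 and 10.37 with control siRNA, leaving 34.4% of control. CCND1, cyclin D1, had 11.83 with siH19-2, 12.36 with siH19-1 and 13.07 with control siRNA. The phosphatase gene CDC25A had 7.84 with siH19-2, 8.03 with siH19-1 and 9.08 with control siRNA, so that the arrays of both H19 siRNAs were low. The repressor E2F7 differed by -1.60, and the kinase gene CDK4 by -1.11. These genes were lower by at least 1.5-fold in 6 to 10 members under the other scalings.

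In the list of DNA replication initiation and fork genes 13 of 49 were lower and 0 were higher, with a median of -0.31 (siH19-1, -0.27) and a range of 10 to 15 lower over the other scalings. The helicase subunits MCM3, MCM2 (-1.41) and MCM5 (-0.73) and the initiation factor MCM10 (-1.22) were among them. MCM3 had 9.67 with siH19-2, 11.62 with siH19-1 and 11.73 with control siRNA, and MCM2 had 6.85 with siH19-2, 7.66 with siH19-1 and 8.26 with control siRNA. DSCC1, a cohesion factor of the clamp loader, differed by -1.53, the chromatin assembly factor CHAF1B by -1.37 and the helicase component GINS2 by -1.31. In nucleotide synthesis 5 of 21 were lower (2 to 6 by scaling): PPAT, CTPS1 (-0.87), IMPDH2 (-0.73), PRPS1 (-0.65) and RRM2 (-0.63). Of 19 replication-dependent histone genes 9 were lower and 0 were higher, with a median of -0.58 (siH19-1, -0.14) and 5 to 10 lower by scaling. H2AC13 differed by -0.91, the linker histone genes H1-3 by -0.84 and H1-4 by -0.79, and H2AC21 by -0.80; histone genes are near copies of each other, so their probe sets may share signal.

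Genes of the later cycle were read next. Of 9 genes of the MYB, FOXM1 and MuvB list 3 were lower, MYBL2, MYB (-1.20) and FOXM1 (-1.16), under each scaling tried. FOXM1, a transcription factor of G2 and mitosis, had 9.55 with siH19-2, 10.09 with siH19-1 and 10.71 with control siRNA. Of 39 mitosis genes 6 were lower and 0 were higher (4 to 9 lower by scaling), with a median of -0.30 (siH19-1, -0.20). They were CCNB1 (-0.93), CCNA2 (-0.79), KIF20A (-0.77), GTSE1 (-0.70), MAD2L1 (-0.69) and KIF23 (-0.64). Kinesins and tubulins had 8 of 43 lower (4 to 12 by scaling), led by TUBG1, the gamma-tubulin that nucleates spindle microtubules, at -1.50. In cohesin and condensin, a list added after the data were seen, 2 of 22 were lower, NCAPD3 (-1.42) and SMC5 (-1.14). SMC5 was counted in this list although it is a subunit of neither complex. Of 27 homologous recombination and Fanconi anaemia genes 4 were lower (0 to 6 by scaling), among them XRCC2 (-0.68), PALB2 (-0.63) and RAD51C (-0.63), and FANCL was higher at 0.69. No p53 target among 21 changed as deposited (0 to 3 lower and 0 to 1 higher by scaling); the nearest were TIGAR (-0.58) and CCNG1 (0.57), and the list's median of 0.05 turned negative (-0.05) after median centring.

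Upstream regions of genes from these lists are shown because they hold letters known to be bound by factors of the same pathways: E2F factors at TTTCCCGC, TTTGGCGC or TTTCGCGC, the MYC family at the E-box CACGTG, and the histone promoter box CCAAT. Each run is the 250 bases before the annotated start (RefSeq, GRCh38.p14), 5′ to 3′ on the gene's strand, with matches on either strand to 1 motif per gene in capitals and any other motif left unmarked. The first pair is marked for E2F, UTP20, a ribosome biogenesis gene that differed by -0.72, for the E-box, and H1-3 for CCAAT.
MCM3 (chr6:52284743-52284992, minus strand): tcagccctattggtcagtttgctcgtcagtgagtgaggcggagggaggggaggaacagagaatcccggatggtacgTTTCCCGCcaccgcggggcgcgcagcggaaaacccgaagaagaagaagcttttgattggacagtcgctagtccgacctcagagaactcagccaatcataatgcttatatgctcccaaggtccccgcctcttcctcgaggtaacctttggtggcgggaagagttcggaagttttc
CDC25A (chr3:48188418-48188667, minus strand): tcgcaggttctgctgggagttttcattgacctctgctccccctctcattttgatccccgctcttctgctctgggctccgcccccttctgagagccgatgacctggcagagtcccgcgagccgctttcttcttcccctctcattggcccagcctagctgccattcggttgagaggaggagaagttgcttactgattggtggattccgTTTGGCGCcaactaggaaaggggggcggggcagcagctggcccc
UTP20 (chr12:101279855-101280104, plus strand): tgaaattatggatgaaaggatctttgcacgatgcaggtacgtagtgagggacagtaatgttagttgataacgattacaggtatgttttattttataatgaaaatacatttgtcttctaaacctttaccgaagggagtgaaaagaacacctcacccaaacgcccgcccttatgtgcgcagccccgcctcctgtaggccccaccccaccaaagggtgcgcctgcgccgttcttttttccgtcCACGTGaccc
H1-3 (chr6:26234988-26235237, minus strand): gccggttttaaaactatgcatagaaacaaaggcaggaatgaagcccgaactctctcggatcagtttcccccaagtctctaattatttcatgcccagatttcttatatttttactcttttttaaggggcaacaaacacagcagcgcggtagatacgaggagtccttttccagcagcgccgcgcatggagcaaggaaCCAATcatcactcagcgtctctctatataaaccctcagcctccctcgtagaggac

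Motifs were counted over the 300 bases from 250 before to 50 after the start, on both strands, for all 27305 RefSeq promoters and for the 7271 compared genes that have one. An E2F motif was in 2.79% of all promoters and in 5.07% of the compared genes' promoters. Of 369 compared genes that hold one, 48 (13.01%) were lower, and of 6902 that do not, 638 (9.24%) were lower; the medians were -0.14 and -0.08. An E-box was in 7.43% of all promoters: 97 of 785 compared genes that hold it (12.4%) were lower, against 589 of 6486 that do not (9.08%). The CHR motif of mitotic genes (TTTGAA or TTCGAA) was in 16.6% of all promoters, with 9.75% of holders lower and 9.39% of the others, and CCAAT was in 35.7%, with 9.67% and 9.29%. Holders and other genes were not matched for signal, with which the lower share also varied. Within the replication list 17 of 41 promoters held an E2F motif, and the median was -0.22 for these and -0.32 for the others. Within the ribosome biogenesis list 19 of 58 held an E-box, and the medians were -0.57 and -0.56. Among histone genes 18 of 18 promoters held CCAAT. A match describes letters in the window and shows no binding.

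Transcription and RNA decay factors changed in both directions. Of 27 Mediator genes 3 were lower, CDK8, MED21 (-0.93) and MED8 (-0.64), and MED13, a partner of CDK8 in the kinase module, was higher at 0.74. Among 34 genes of RNA polymerase II and elongation 4 were lower (1 to 7 by scaling), led by ELOA, elongin A, at -1.39, and CCNT2, a cyclin of the elongation kinase P-TEFb, was higher at 0.97. Of the splicing factors 3 of 28 were lower, HNRNPF (-1.69), HNRNPR (-1.26) and HNRNPAB (-1.04), and PTBP2 was higher. Another, dimmer probe set of HNRNPR differed by -0.16. In mRNA decay 8 of 51 were lower, among them PATL1 (-1.63), CNOT9 (-1.52) and EXOSC5 (-1.37), and 2 were higher. DCP2, the decapping enzyme, had 9.51 with siH19-2, 9.64 with siH19-1 and 7.91 with control siRNA, while its partner DCP1A differed by -1.08. In the RNA interference list 2 of 9 were lower: TNRC6B, a scaffold of silencing complexes, at -1.24 and XPO5, the exporter of microRNA precursors, at -0.62. Of 31 Polycomb and BAF genes SMARCD1 alone changed (-1.88), and of 249 ZNF zinc finger genes 10 were lower, ZNF511 by -1.90, and 1 was higher, with a median of -0.01.

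Nuclear transport and protein handling genes were mostly lower where they changed, as were all compared genes as deposited (862 lower and 283 higher). Of 47 nuclear pore and importin genes 11 were lower and 1 was higher (7 to 15 lower by scaling), with a median of -0.28 (siH19-1, -0.14). The pore protein SEH1L differed by -1.51, the import receptors TNPO2 and KPNA3 by -1.27 and -1.23, and NUP35 by -1.06. Of 33 cytosolic chaperones 9 were lower and 0 were higher (7 to 14 by scaling), with a median of -0.44 (siH19-1, -0.18). HSPA4L, an HSP110 family exchange factor, had 9.99 with siH19-2, 10.88 with siH19-1 and 11.37 with control siRNA. HSPA9, mortalin, which works in mitochondria and is counted in this list too, had 13.78 with siH19-2, 14.75 with siH19-1 and 15.04 with control siRNA. HSPA1A differed by -1.11 and the HSP90 co-chaperone FKBP4 by -1.10. No gene of the unfolded protein and integrated stress response list changed among 30; its largest difference was -0.55, in HSPA5, the main chaperone of the endoplasmic reticulum.

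Secretory and degradation lists gave the following. In the list of the translocon, signal recognition and TMED proteins, which was added after the data were seen, 10 of 35 were lower (7 to 10 by scaling), with a median of -0.22. TMED2 had 13.10 with siH19-2, 14.98 with siH19-1 and 15.13 with control siRNA. SRPRA, the signal recognition particle receptor, had 12.30 with siH19-2, 13.46 with siH19-1 and 13.58 with control siRNA. TMED4 differed by -1.32 and MMGT1, of the membrane insertion complex EMC, by -1.27. Of 41 COPI, COPII and golgin genes 5 were lower (1 to 7 by scaling), with SEC23B at -0.74. RAB GTPases, which direct vesicle traffic, had 8 of 46 lower and 1 higher (5 to 10 lower by scaling): RAB4A of early endosomes had 6.65 with siH19-2, 8.42 with siH19-1 and 8.51 with control siRNA, RAB14 differed by -1.57 and RAB7A of late endosomes by -1.18. Of 35 sorting nexins, retromer and HOPS genes 2 were lower, SNX27 (-1.09) and VPS11 (-0.64), and 2 were higher, VPS33A (1.08) and SNX13 (0.66). Of 44 proteasome subunits 4 were lower (2 to 4 by scaling), PSMB5 by -1.28, and of 25 UBE2 enzymes, a list added after the data were seen, 5 (2 to 6 by scaling), with the lowest value, -1.49, at a probe set named UBE2S. That probe set lies on chromosome 17 by its identifier, whereas RefSeq places UBE2S, a partner of the anaphase-promoting complex, on chromosome 19, and the other UBE2S probe set, on chromosome 19, differed by -0.49. Of 45 CUL-RING and F-box ligase genes 4 were lower, FBXO28 (-0.83) following FBXW2. Of 61 autophagy and lysosome genes 4 were lower (0 to 7 by scaling), among them BECN1 (-0.74) and MAP1LC3B (-0.68).

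Metabolic lists turned on a few genes with large differences. Of 22 TCA cycle genes 5 were lower and 0 were higher, while the median was -0.13 (siH19-1, -0.16). CS had 9.37 with siH19-2, 11.79 with siH19-1 and 11.95 with control siRNA, leaving 16.7% of control. The mitochondrial malic enzyme ME2 had 9.82 with siH19-2, 11.25 with siH19-1 and 11.54 with control siRNA. DLST, a subunit of oxoglutarate dehydrogenase, differed by -1.31 (siH19-1, -0.73), and IDH3B, another subunit of the enzyme of IDH3A, by -0.74. Of the 42 genes in the complex I list NDUFAF4 was lower (-0.93) and TIMMDC1 higher (0.83), both assembly factors, and of 54 genes of complexes II to V ATP5MF (-1.03) and COX17 (-0.74) were lower. NDUFAB1 (-3.26), also an accessory subunit of complex I, is not in that list. Among 32 mitochondrial carriers 5 were lower, led by SLC25A39 (-1.47), a glutathione carrier, and SLC25A32 (-1.08), a folate carrier. In mitochondrial import, chaperones and proteases, a list added after the data were seen, 8 of 39 were lower (4 to 12 by scaling), among them TOMM40, the import pore, at -1.12 and STOML2 at -0.90.

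Among 38 genes of glucose transport, glycolysis and the pentose phosphate pathway 6 were lower and 3 were higher. Below SLC2A1 came PGD of the oxidative pentose phosphate branch, with 12.09 with siH19-2, 12.90 with siH19-1 and 13.34 with control siRNA. The hexokinase gene HK2 had 6.83 with siH19-2, 7.13 with siH19-1 and 7.98 with control siRNA. The glucose transporter SLC2A3 (GLUT3) went the other way to SLC2A1, with 7.50 with siH19-2, 7.58 with siH19-1 and 6.50 with control siRNA. The alpha-arrestins, a list of 4 compared genes added after the data were seen, split: TXNIP and ARRDC3 were higher, and ARRDC4 was lower, with 6.77 with siH19-2, 7.16 with siH19-1 and 7.85 with control siRNA. Amino acid transporters had 4 of 21 lower: SLC7A1, which carries cationic amino acids, had 7.93 with siH19-2, 9.41 with siH19-1 and 9.87 with control siRNA, and SLC7A5 (-1.13), SLC43A1 (-1.10) and SLC6A6 (-0.79) followed, while SLC38A2, a glutamine transporter, was higher at 0.61. Fatty acid genes had 5 of 37 lower (3 to 6 by scaling), among them ELOVL6 (-0.95), ACACA (-0.83), SCD (-0.80) and FASN (-0.67), and ETFDH, of electron transfer from fatty acid oxidation, higher at 0.63. Single genes were lower in the lists of serine and one-carbon enzymes (MAT2A, -0.85, of 17), iron and heme (CPOX, -0.83, of 23) and NRF2 and glutathione (PGD, of 34). Of 25 cholesterol genes 0 were lower and 3 were higher, SPRING1, INSIG2 (0.71) and MSMO1 (0.63); the median was 0.05 with siH19-2 and -0.37 with siH19-1, and the siH19-2 median turned negative (-0.05) after median centring over all probe sets. MSMO1, a sterol demethylation enzyme, had 12.05 with siH19-2, 10.66 with siH19-1 and 11.42 with control siRNA, so the arrays of the H19 siRNAs lay on opposite sides of the control.

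Among signalling lists, the immediate early and ERK feedback genes had 3 of 25 lower (3 to 6 by scaling). EGR1, a growth factor response gene, had 9.29 with siH19-2, 9.95 with siH19-1 and 10.86 with control siRNA, leaving 33.7% of control. MYC, a transcription factor of growth genes, had 8.51 with siH19-2, 9.62 with siH19-1 and 9.59 with control siRNA, and its siH19-1 array was at the control level. Of 27 growth factor receptor and RAS pathway genes 4 were lower (2 to 7 by scaling), among them EGFR (-0.92), MET (-0.88) and IGF1R (-0.62), and PIK3R1, a regulatory subunit of PI3 kinase, was higher at 0.80. In the BMP, TGF-beta and ID list 6 of 28 were lower under each scaling tried, ID1, ID2 (-1.21), TGFB2 (-1.07), TWSG1 (-0.99), TGFB1 (-0.87) and INHBB (-0.75). The WNT list had 3 of 32 lower (2 to 6 by scaling), the receptor FZD6 (-1.17), VANGL1 (-1.12) and GSK3A (-0.60), and the R-spondin receptor LGR4 higher (0.76). FZD6 had 6.52 with siH19-2, 6.66 with siH19-1 and 7.69 with control siRNA, low on the arrays of both H19 siRNAs. Among YAP and TEAD genes 5 of 19 were lower (2 to 5 by scaling), led by the Hippo adaptor MOB1A (-1.74) and TNFRSF12A (-1.41). Of 9 imprinted genes compared besides H19, PHLDA2 alone changed, at -1.26.

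The NF-kB, chemokine and cytokine list had 7 of 25 lower and 2 higher, with a median of -0.24 (siH19-1, -0.03). MYD88, the adaptor of Toll-like and interleukin-1 receptors, had 6.27 with siH19-2, 8.39 with siH19-1 and 7.79 with control siRNA. The neutrophil chemokines CXCL1 and CXCL8 followed: CXCL1 had 6.44 with siH19-2, 7.54 with siH19-1 and 7.60 with control siRNA. CXCL8 had 7.78 with siH19-2, 8.93 with siH19-1 and 8.85 with control siRNA. In all 3 genes the siH19-2 array was low and the siH19-1 array was near or above the control. CXCL5 (-0.83), CXCL2 (-0.78), ICAM1 (-0.74) and CHUK (-0.70) were the others, and IL18 and TLR3 (0.85) were higher. The promoters of CXCL1 and CXCL2 are shown because each holds an NF-kB motif (GGANTTTCC, either strand), which is in capitals; they run over the same 250 bases of RefSeq GRCh38.p14 as those above.
CXCL1 (chr4:73869143-73869392, plus strand): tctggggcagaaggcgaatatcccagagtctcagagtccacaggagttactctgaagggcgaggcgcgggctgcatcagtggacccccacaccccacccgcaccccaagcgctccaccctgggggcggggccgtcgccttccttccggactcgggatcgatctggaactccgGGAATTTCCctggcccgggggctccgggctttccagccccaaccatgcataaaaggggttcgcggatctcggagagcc
CXCL2 (chr4:74099196-74099445, minus strand): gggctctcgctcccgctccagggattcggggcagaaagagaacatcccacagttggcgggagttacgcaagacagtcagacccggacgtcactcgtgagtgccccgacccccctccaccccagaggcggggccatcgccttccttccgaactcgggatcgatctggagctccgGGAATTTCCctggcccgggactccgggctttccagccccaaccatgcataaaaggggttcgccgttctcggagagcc

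That motif was in 1.64% of all promoters and in 11 of 21 promoters of the NF-kB list, where 5 of the 11 genes with it and 2 of the 10 without it were lower. Spelled with a further G at the 5′ end it was in 9 of the 21, of which 3 were lower, and 4 of the other 12 were lower, so the split depended on the spelling. Over all compared genes 16 of 134 holders (11.9%) were lower, against 670 of 7137 others (9.39%), and with the further G 3 of 48 (6.25%), against 683 of 7223 (9.46%). Of 21 RNA sensing and interferon genes IFIT5 alone changed (-1.21), and of 14 HLA and antigen presentation genes none did, the largest differences being TAP2 (-0.57) and ERAP1 (0.24). Among BCL2 family, death receptor and caspase genes 3 of 29 were lower (2 to 5 by scaling), TNFRSF10A, a TRAIL receptor, by -1.17, and PMAIP1 (NOXA) was higher (0.80, siH19-1 1.02). In the list of aryl hydrocarbon receptor, hypoxia and circadian factors HIF1A, the hypoxia-inducible subunit, had 11.27 with siH19-2, 12.82 with siH19-1 and 12.52 with control siRNA. CYP1B1 had 7.77 with siH19-2, 7.84 with siH19-1 and 8.92 with control siRNA, PER2 differed by -0.84, and BNIP3L (0.81) and NR1D2 (0.73) were higher.

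Epithelial genes did not move together. EPCAM, an epithelial surface adhesion molecule, had 13.02 with siH19-2, 14.70 with siH19-1 and 14.74 with control siRNA, leaving 30.4% of control, while CDH1 rose and CDH17, the intestinal cadherin, was higher at 0.62. Desmosomes and keratins had DSG2 and PKP3 (-0.63) lower among 10 genes. Tight junction genes had CLDN2, a pore-forming claudin, lower (-0.91) and PALS1 higher (0.60) among 17. By scaling 1 to 4 of them were lower and 0 to 1 higher. The CLDN2 signal with siH19-2, 4.8, was under the signal minimum. Of 20 integrin and matrix adhesion genes 4 were lower (1 to 4 by scaling): CEMIP, a hyaluronan-degrading protein, had 7.09 with siH19-2, 8.12 with siH19-1 and 9.07 with control siRNA, and ILK (-0.74) and FERMT1 (-0.68) followed, while PTK2, focal adhesion kinase, was higher (0.64). In the cilia list 3 of 30 were lower (2 to 3 by scaling), among them TTC8 of the BBSome (-1.34) and the motor gene KIF3B (-1.13). In the same list 2 were higher (1 to 2 by scaling), TULP3 and ARL3 (0.65). Of 12 compared intestinal lineage genes 2 were higher (0 to 2 by scaling), AGR2 (0.59) and CDH17, and 33 more were below the minimum. Of 7 epithelial-mesenchymal transition factors EHF (-0.67) and ESRP2 (-0.61), both epithelial, were lower (0 to 2 by scaling).

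Kinds of RNA differed in how their values fell. Of 8400 protein-coding genes 806 (9.60%) were lower and 192 (2.29%) were higher, with a median of -0.09. Of 197 microRNA genes 6 were lower and 39 (19.8%) were higher, with a median of 0.30 with siH19-2 and 0.13 with siH19-1. Under the other scalings 25 to 62 were higher. The signal minimum was set on a mean that includes the siH19-2 array, so a dim gene could pass it through a high siH19-2 signal. MIR147A (5.38 with siH19-2, 4.74 with control siRNA), MIR3662 (5.37 and 4.65) and MIR3646 (5.44 and 4.7) were higher with a control signal under the minimum. Among higher genes of all kinds, 9 had a control signal under it. Among 29 MIR548 genes, copies of a primate family that arose from a transposable element, 11 were higher and 0 were lower, and the median was 0.40 (siH19-1, 0.22). Their probe sets were bright, with a median log2 signal of 14.28 with siH19-2, 14.26 with siH19-1 and 13.62 with control siRNA, and single signals reached 19.93 with siH19-2 and 19.90 with control siRNA. By its identifier the probe set used lay on another chromosome than the RefSeq gene for 23 of the 29, of which 10 were higher, and on the same chromosome for 6, of which 1 was higher, so these values cannot be given to single MIR548 genes. The probe set named MIR548H3 had 14.69 with siH19-2, 14.57 with siH19-1 and 13.67 with control siRNA, the largest difference of the family. The probe set named MIR548X had 13.75 with siH19-2, 13.12 with siH19-1 and 12.74 with control siRNA, and that named MIR548T had 14.88 with siH19-2, 14.26 with siH19-1 and 13.96 with control siRNA, while another probe set named MIR548T differed by 0.24. These loci are near copies, so their probe sets may share signal, and an array signal at a microRNA gene does not separate the mature microRNA from its precursor or host transcript. Of the 45 microRNA genes that changed 38 had a mature sequence in the RefSeq table.

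**Figure D5:**
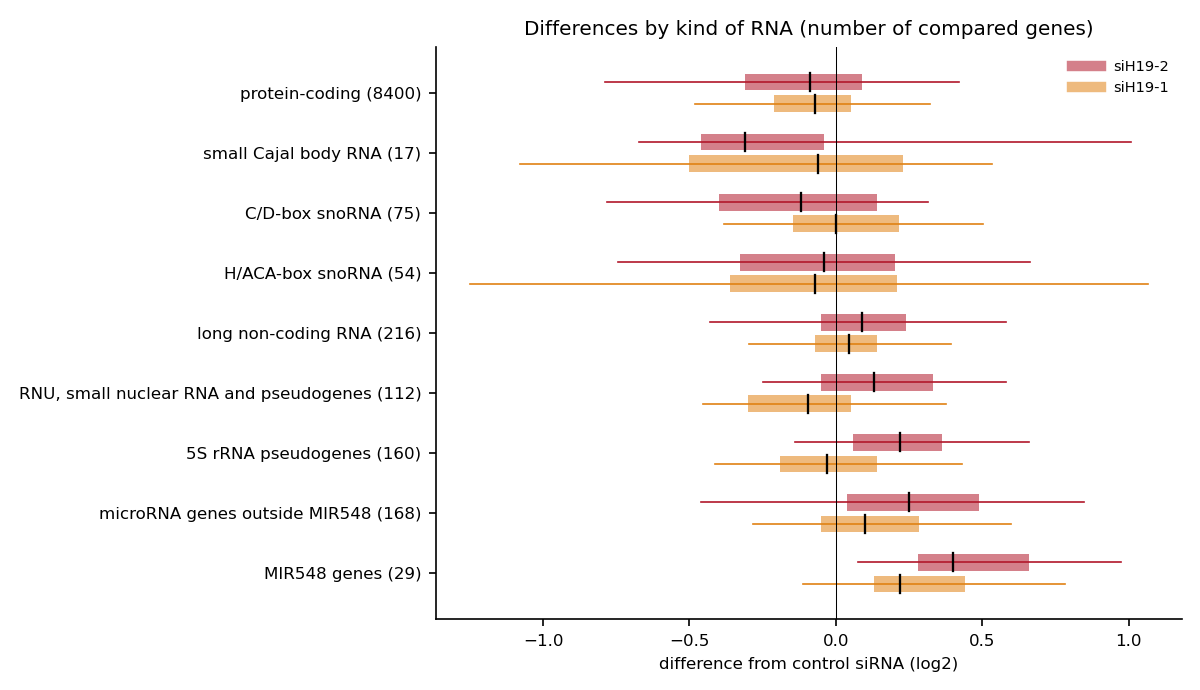
For each kind of RNA, with its number of compared genes, boxes span the 25th to the 75th percentile of the log2 differences from control siRNA, thin lines the 5th to the 95th, and black bars the median, for siH19-2 (red, upper) and siH19-1 (orange, lower). With siH19-2 the medians run from -0.31 for small Cajal body RNAs and -0.09 for protein-coding genes to 0.40 for MIR548 genes.

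Single microRNA genes outside that family also changed. MIR2054 had 7.08 with siH19-2, 5.88 with siH19-1 and 9.15 with control siRNA, low on the arrays of both H19 siRNAs. MIR4653 (-1.12) and MIR4737 (-0.89) were the next lowest. MIR766 had 8.16 with siH19-2, 7.43 with siH19-1 and 7.02 with control siRNA, the highest difference of the microRNA genes at 1.14, and MIR4434 followed at 1.02. Of 160 5S ribosomal RNA pseudogenes 15 were higher and 0 were lower (5 to 25 higher by scaling), with a median of 0.22 (siH19-1, -0.03), and RNA5SP162 was highest at 0.92. Of 112 RNU genes, small nuclear RNAs and their pseudogenes, 6 were higher (5 to 14 by scaling), RNU6-82P by 1.00; of 19 annotated as small nuclear RNA none changed, and RNU5F-1 (0.50) and RNU6ATAC (-0.33) marked the ends.

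Small nucleolar RNAs guide the modification of ribosomal RNA. Of 75 box C/D genes 12 were lower and 3 were higher (6 to 13 lower by scaling), with a median of -0.12. SNORD51 had 9.70 with siH19-2, 10.59 with siH19-1 and 10.74 with control siRNA, SNORD19 differed by -1.0 and SNORD70 by -0.92, while SNORD97 was higher at 0.90. Of 54 box H/ACA genes 6 were lower and 4 were higher (4 to 9 lower by scaling). SNORA2A had 8.53 with siH19-2, 9.54 with siH19-1 and 6.98 with control siRNA, and SNORA65 had 12.38 with siH19-2, 13.14 with siH19-1 and 11.40 with control siRNA, both high on the arrays of both H19 siRNAs. Of 17 small Cajal body RNAs 3 were lower, SCARNA2 (-0.76), SCARNA12 (-0.65) and SCARNA9L (-0.62), and 2 were higher, SCARNA3 and SCARNA10 (0.71).

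Of 216 long noncoding RNAs 8 were lower and 10 were higher (7 to 17 higher by scaling), with a median of 0.09 that turned negative (-0.01) after median centring over all probe sets. After AFAP1-AS1 the lowest were PCOTH (-0.96) and FAM27E3 (-0.86). MALAT1, an abundant nuclear RNA, had 15.92 with siH19-2, 15.45 with siH19-1 and 15.02 with control siRNA, and CAMTA1-IT1 (1.05) and SNRK-AS1 (0.87) were the other high ones named. Some of the lowest pseudogenes had a parent gene that was also lower. EIF2S2P3 differed by -1.39 and EIF2S2 by -2.10, SBDSP1 by -1.62 and SBDS by -1.57, ID2B by -1.61 and ID2 by -1.21, and RRN3P2 by -1.12 and RRN3 by -1.33. A pseudogene and its parent are near copies, so these probe sets may share signal and the pseudogene values are uncertain. EIF4A1P2 (-1.14) and FAM86C1P (-1.07) were also among the lowest, and no parent gene was set beside them. The highest pseudogenes named were GTF2IRD2P1 (0.97) and ANKRD36BP1 (0.84).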

How the data were processed

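Total RNA of DLD1 cells was measured on 3 Affymetrix arrays, 1 each for siH19-2, siH19-1 and control siRNA. Per the submitters' processing notes the authors used Affymetrix Expression Console and RMA, and no version is given in the sources used here. What the authors deposited is log2 signal, and some values lie above the range of a 16-bit scanner, so a further transformation is possible and not stated. Groups were taken from the treatment labels. From the deposited values, probe sets with 1 symbol in the platform annotation were kept (23781 of 67528). The brightest per gene was taken, and genes with a mean of 5 or more were compared. Gene names were those of the platform annotation, and RefSeq (GRCh38.p14) gave kinds, chromosomes and sequences. For 37 of 9542 genes placed, 23 of them MIR548 genes, the probe set's identifier named another chromosome than RefSeq. Differences were taken with Python 3.11.15, pandas 2.3.3 and numpy 2.4.6 and called at 1.5-fold. The calling code was run on simulated data with planted 2-fold differences and an assumed noise. That noise was not taken from these arrays, so the run checks the code and gives no error rate for these calls. limma 3.58.1 in R 4.3.3 gave quantile and cyclic loess scaling, and matplotlib 3.10.9 drew figures. No test was run, because a group holds 1 array. The number of arrays limits the precision.

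Members and lists were chosen with earlier results of these data known, and 6 lists were added after the data were seen. Named were H19, the 25 lowest and 25 highest genes, up to 4 changed members of each list with the largest differences (or 2 where none changed), and 3 at either end of each kind of RNA. Further members named in a list were chosen after their values were seen, as were the sequences, motifs and pseudogene parents. Alternatives were median centring, quantile and cyclic loess scaling, no minimum or a minimum of 7, the mean of a gene's probe sets and a 2-fold threshold; scaling over the compared genes was added after seeing the data.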

Additional observations from a re-analysis of the deposited data

How the results depend on the processing

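As deposited, 283 genes were higher and 862 lower with siH19-2 than with control siRNA. Median centring over all probe sets left 185 higher genes, and the 2-fold threshold left 50 higher and 252 lower. With settings chosen after seeing the data, 472 genes were higher after median centring over the compared genes, and 469 were higher and 559 lower after quantile normalization over the compared genes. Under quantile and cyclic loess scaling over all probe sets, no signal minimum, a minimum of 7 and the mean of a gene's probe sets, both counts stayed within 1.5 times. The median difference ran from -0.17 to 0.04. The H19 difference, -0.51, kept its sign. Of 277 named genes none that was past 1.5-fold changed direction under the 5 other scalings, and quantile normalization over the compared genes brought 35 below 1.5-fold. The scalings moved the median difference by far less than that threshold, so a change of direction was hardly possible. The cause of these shifts was not tested. For 157 compared genes another probe set was available, and the SD of the difference between probe sets of a gene was 0.185. For 18 changed genes 53 of 54 other probe sets had the same sign and 40 were also past 1.5-fold. Most of these were alternate-haplotype copies of the same locus with nearly equal values, so the SD and these counts are little check. Outside such copies, CYP1B1 (-0.69), FAM27E3 (-0.91) and MIR548H3 (0.68) were also past 1.5-fold in the other probe set. LRRC59 (-0.13), HNRNPR (-0.16), H2BC11 (-0.16), UBE2S (-0.49), MIR548A3 (-0.03), MIR548H2 (0.04) and MIR548T (0.24) were not. No paired analysis was possible because each condition has 1 array, so the groups share fewer than 2 replicate numbers. Without replicates no value has an error, and dim probe sets lack detection calls.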

Other observations

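Probe sets with no gene symbol in the platform annotation were left out of the comparison. Of the 8551 past the signal minimum, 838 (9.80%) were higher and 507 (5.93%) were lower by at least 1.5-fold with siH19-2 than with control siRNA. Their median difference was 0.08, against -0.07 for the compared genes, and single differences ran from -3.03 to 7.73. What these probe sets measure was not analysed here.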
